A study of Mus musculus with 6 samples.

Results

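Globin and red cell genes were followed in the lungs of hypoxic mice with and without NFAT5 in their smooth muscle cells (SMCs). The set was fixed by gene symbol and holds 8 genes, the alpha globins Hba-a1 and Hba-a2, the beta globins Hbb-bs and Hbb-bt, the haem enzyme gene Alas2, the membrane protein genes Slc4a1 and Epb42, and the globin chaperone gene Ahsp. Of the 8, 5 had a probe set among the 25428 of the deposited table, namely Hbb-bs, Hbb-bt, Alas2, Slc4a1 and Epb42. Hba-a1, Hba-a2 and Ahsp were not analysed here. Total RNA came from 1 lung lobe of each of 6 mice, all kept at 10% oxygen for 7 days, and was hybridised to 1 array per mouse. 3 lungs were from Nfat5fl/fl mice, in which both Nfat5 alleles carry recombination sites but are intact, and 3 were from Nfat5(SMC)-/- mice. By the study's methods, all were males treated as young adults, the deletion was driven by a tamoxifen-inducible Cre under the smooth muscle myosin heavy chain promoter, and controls received the carrier oil miglyol in place of tamoxifen. The methods do not state separately whether the controls carry the Cre construct. Tamoxifen and the deletion therefore cannot be told apart, and cells other than SMCs keep Nfat5. The labels number the mice of either genotype 1, 2 and 4. Wherever 3 levels of a genotype are listed, they stand in that order, with Nfat5fl/fl lungs called controls and Nfat5(SMC)-/- lungs called knockouts. The sources used here do not say whether the lobes for RNA were flushed of blood.

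Red cells carry oxygen on haemoglobin, a tetramer of alpha and beta globin chains that each hold a haem group. Mature mammalian red cells have no nucleus and make no new RNA, but young red cells, the reticulocytes, keep globin and other transcripts for a short time after they enter the blood. Low oxygen raises erythropoietin, which drives the bone marrow to release more young red cells, and blood left in the vessels of a lobe can bring red cell transcripts into its RNA. Alveolar epithelial cells are also known to make some globin. The array reads a lobe as a whole, and fewer red cells and less RNA per cell cannot be told apart in it.

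The promoters of the measured members are shown first, since Hbb-bt and Alas2 are the members whose levels moved most between lungs and the sequences show what the beta globin genes share. RefSeq sequences of the build GRCm38.p6 were matched by symbol for 4 of the 5 measured members. The last 120 bases before the start site are given 5′ to 3′ on the strand of the gene, with capitals for 4 short motifs on either strand. They were CACCC, the box read by Krüppel-like factors, the CCAAT box of many promoters, AGATAA as a form of the GATA factor site, and ATATAA as a form of the TATA box. A match is a description of letters and not a measured site.
Hbb-bs (chr7:103827929-103828048, minus strand): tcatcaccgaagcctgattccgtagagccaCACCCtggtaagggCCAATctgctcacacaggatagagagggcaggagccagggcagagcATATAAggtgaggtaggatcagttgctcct
Hbb-bt (chr7:103813924-103814043, minus strand): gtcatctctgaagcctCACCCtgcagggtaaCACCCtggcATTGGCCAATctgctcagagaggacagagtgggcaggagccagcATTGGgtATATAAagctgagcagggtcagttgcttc
Alas2 (chrX:150547297-150547416, plus strand): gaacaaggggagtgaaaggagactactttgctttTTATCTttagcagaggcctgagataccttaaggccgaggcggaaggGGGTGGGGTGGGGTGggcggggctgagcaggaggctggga
Epb42 (chr2:121036878-121036997, minus strand): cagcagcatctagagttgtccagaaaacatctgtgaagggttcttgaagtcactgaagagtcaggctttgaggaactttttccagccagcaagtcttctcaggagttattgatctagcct

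Both beta globin promoters held the same 3 elements in the same order. The windows of Hba-a1 and Hba-a2, which are not printed, held these 3 as well, with CCAAT farthest from the start site. In Hbb-bs, CACCC lay at -90 to -86 from the start site, CCAAT at -76 to -72 and ATATAA at -30 to -25. In Hbb-bt, a CACCC lay at -89 to -85, a CCAAT at -75 to -71 and ATATAA at -29 to -24, and a further CACCC lay upstream at -104 to -100. Hbb-bt also held CCAAT on the opposite strand, at -80 to -76 and -36 to -32. When aligned, the beta globin windows shared 91 of 120 bases (75.8%). Alas2 held CACCC 3 times on the opposite strand, between -40 and -26, and AGATAA once on the opposite strand, at -86 to -81. The Epb42 window held none of the 4. Among 32851 mouse promoter windows of the same length, 31.7% held CACCC, 21.3% CCAAT, 4.36% AGATAA and 4.47% ATATAA.

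Taken one by one, none of the 5 measured members passed the test between genotypes. The beta globin gene Hbb-bt and Alas2 were 1.43-fold and 1.68-fold higher in Nfat5(SMC)-/- lungs on average, but the controls alone spanned more than that for both genes, and 1 control lung held the lowest level of both. Hbb-bs was higher in all 3 Nfat5(SMC)-/- lungs by a small step at a low signal, and Slc4a1 and Epb42 overlapped between the groups. Limma called 0 of the 5 at an adjusted p under 0.05, against 0.818% of all probe sets (0.260% higher and 0.558% lower in knockouts). At an unadjusted p under 0.05 it held 1 of the 5, Hbb-bs, where 19.3% of all probe sets passed. The methods' t-test, the form for 2 groups of the study's test, run on the same values, called 0 of the 5 after adjustment and 1 before it. Of all probe sets it called 0 after adjustment and held 15.5% before it, so its 0 of the 5 is not particular to the members. An exact permutation test of 3 lungs against 3 has a smallest possible p of 0.1 and was not used for single genes. Differences were taken as knockout minus control in log2 units of the deposited values, and p-values are those of limma adjusted over all probe sets.

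**Figure D1:**
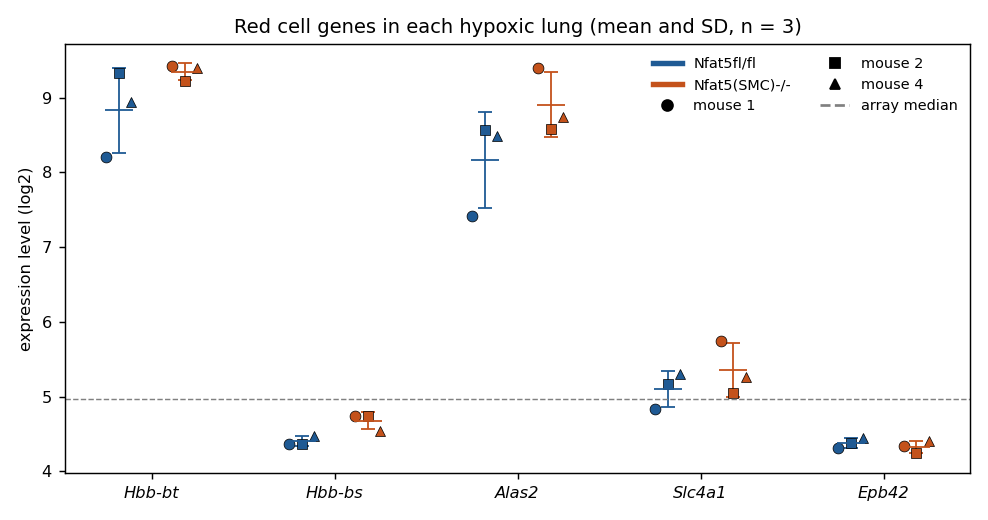
Expression level (log2, vertical axis) of the 5 measured red cell genes in each lung, blue for Nfat5fl/fl and orange for Nfat5(SMC)-/-, with the symbol giving the mouse number, bars the mean and SD of 3 lungs, and the dashed line the median of all probe sets on an array. Control mouse 1 was lowest for Hbb-bt, Alas2 and Slc4a1, and Nfat5(SMC)-/- mouse 1 was highest for each of them.

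Hbb-bt encodes an adult beta globin chain. Its level was 8.21, 9.34 and 8.94 across controls. Across knockouts it was 9.43, 9.22 and 9.39. The 3 Nfat5(SMC)-/- lungs lay within 0.21 of each other, while the controls spanned 1.13, and control mouse 2 lay above Nfat5(SMC)-/- mouse 2, so the groups overlapped. The mean went from 8.83 ± 0.57 (SD, n = 3) to 9.35 ± 0.11 (SD, n = 3). The difference of 0.52 (SE 0.28, 95% interval -0.15 to 1.19) had an adjusted p of 0.369. It rested in large part on control mouse 1: without this lung the difference was 0.21, and without control mouse 2 it was 0.77, neither past the test.

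Hbb-bs encodes the other adult beta globin chain of the same haplotype. Its probe set was dim, at 4.37, 4.36 and 4.48 across controls against 4.75, 4.75 and 4.54 across knockouts. All 6 values lay below the array median of 4.96, and all 3 Nfat5(SMC)-/- lungs lay above all 3 controls. The mean went from 4.40 ± 0.07 (SD, n = 3) to 4.68 ± 0.12 (SD, n = 3), a difference of 0.28 (SE 0.08, 95% interval 0.07 to 0.48) with an adjusted p of 0.154. This difference stayed between 0.24 and 0.34 with any 1 lung left out. Its unadjusted limma p was 0.0154 in all 6 lungs. Without control mouse 1, control mouse 2 or knockout mouse 2 that p was 0.0502, 0.0520 and 0.0537, and without any other lung it stayed under 0.05. Groups did not overlap for 2 of the 5 members, Hbb-bs and Alas2, both higher in knockouts. Of all probe sets, 11.8% lay without overlap in that direction and 15.0% in the other. Adult beta globin genes are close copies of each other, and the sources used here do not say which probes each set holds, so how far either set reads the other gene is uncertain. The strain of the mice is not given either, and mouse strains differ in which pair of adult beta globin genes they carry.

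Alas2 encodes the red cell form of aminolevulinate synthase, which starts haem synthesis, and is X-linked. Its level was 7.42, 8.57 and 8.49 across controls. Across knockouts it was 9.40, 8.58 and 8.75. No Nfat5(SMC)-/- lung lay below a control, but the gap was narrow, 8.58 in Nfat5(SMC)-/- mouse 2 against 8.57 in control mouse 2, and the extremes were the mouse 1 lungs of both groups. The mean went from 8.16 ± 0.64 (SD, n = 3) to 8.91 ± 0.43 (SD, n = 3). The difference of 0.75 (SE 0.36, 95% interval -0.14 to 1.63) had an adjusted p of 0.330 and was higher than that of 98.5% of probe sets. Without control mouse 1 it was 0.38 and without Nfat5(SMC)-/- mouse 1 it was 0.50. Alas2 varied within groups more than 97.9% of all probe sets, and more than 96.2% of the 500 nearest to it in level. For Hbb-bt these shares were 95.3% and 95%.

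Slc4a1 encodes band 3, the anion exchanger of the red cell membrane. It was measured at 4.83, 5.17 and 5.30 across controls against 5.75, 5.04 and 5.26 across knockouts. Nfat5(SMC)-/- mouse 1 stood above the others, control mouse 1 below them, and the remaining 4 lungs were mixed. The difference was 0.25 (SE 0.21, 95% interval -0.26 to 0.76, adjusted p = 0.567). It was 0.05 without Nfat5(SMC)-/- mouse 1, 0.12 without control mouse 1 and 0.41 without Nfat5(SMC)-/- mouse 2. With array weights it turned to -0.027.

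Epb42 encodes protein 4.2, which ties band 3 to the membrane skeleton. Its level was 4.31, 4.38 and 4.45 across controls against 4.33, 4.24 and 4.41 across knockouts. The 6 lungs spanned 0.21, all below the array median and close to the lower quartile of 4.30, where the arrays give little signal. The difference was -0.05 (SE 0.08, 95% interval -0.24 to 0.13, adjusted p = 0.762).

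**Figure D2:**
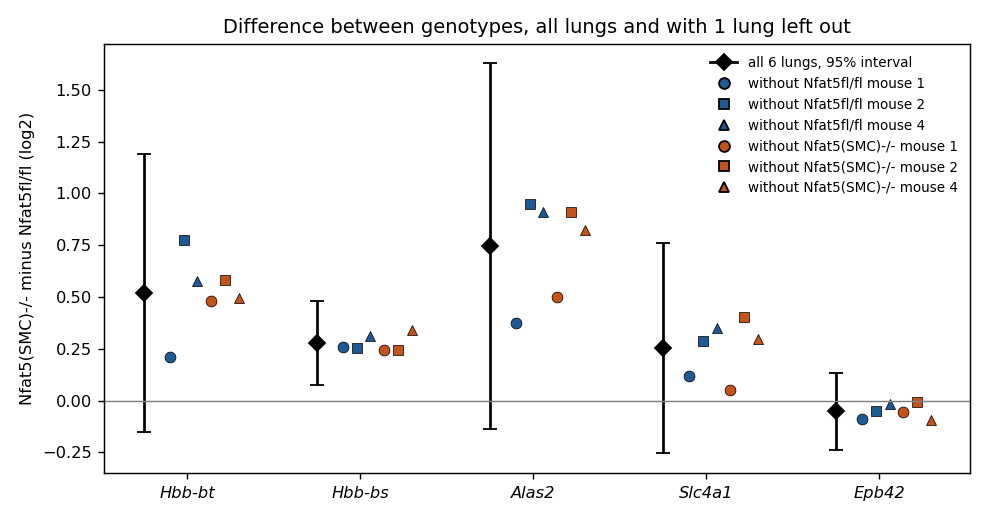
Difference between genotypes (Nfat5(SMC)-/- minus Nfat5fl/fl, log2, vertical axis) for each measured red cell gene, as a black diamond with its 95% limma interval from all 6 lungs and as coloured symbols with 1 lung left out. Without control mouse 1 the difference of Hbb-bt went from 0.52 to 0.21 and that of Alas2 from 0.75 to 0.38, while Hbb-bs stayed between 0.24 and 0.34.

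Hbb-bt, Alas2 and Slc4a1 were lowest and highest in the same lungs. The mean level of the 5 was 5.83, 6.36 and 6.33 across controls against 6.73, 6.37 and 6.47 across knockouts. The group means of this value were 6.17 ± 0.30 and 6.52 ± 0.19 (SD, n = 3 each), a difference of 0.35, which was 0.18 without control mouse 1. In control mouse 1, Hbb-bt lay 0.93 and Alas2 1.11 below the mean of the other controls, and 0.130% and 0.0708% of all probe sets lay further below on that measure. Slc4a1 lay 0.40 below, with 1.87% of probe sets further below, and Hbb-bs and Epb42 lay 0.05 and 0.11 below. Nfat5(SMC)-/- mouse 1 was the highest lung for Hbb-bt, Alas2 and Slc4a1 and shared the highest level of Hbb-bs with Nfat5(SMC)-/- mouse 2.

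Likeness was measured as the root mean square difference between profiles over the 6 lungs, each centred on its own mean, as a description with no test. Among the 10 pairs of members, Hbb-bs and Epb42 were nearest, at 0.20, neither ranging over more than 0.39. Hbb-bt and Alas2 were 0.26 apart although each ranged over more than 1 log2 unit, and Alas2 and Epb42 were farthest apart, at 0.58. The mean profile of the 5 was nearest to Slc4a1 (0.13) and farthest from Alas2 (0.31). In nearness to it among all genes, Slc4a1 ranked 116, Hbb-bs 2058, Hbb-bt 2194, Epb42 8630 and Alas2 14492. The measure is not scaled for range, and Alas2 ranged most of the 5, over 1.98, against 0.21 for Epb42. A large distance can therefore come from range as well as shape. Alas2 and the mean of the 5 were lowest and highest in the same lungs. Each of the 5 is part of this mean, so their ranks are not independent of it. The 10 nearest genes outside the set were Zbtb7a (0.062), Ube2o (0.067), Fcmr (0.071), Fam222a (0.075), Apba3 (0.076), Zcchc3 (0.076), Gpihbp1 (0.076), Zfp637 (0.078), Bcl2l1 (0.079) and Manbal (0.079). Zbtb7a encodes a transcription factor that keeps fetal globin genes silent in human red cell precursors, Ube2o a ubiquitin ligase that clears ribosomes and other proteins from reticulocytes and is also in the cytosol list given further on, and Bcl2l1 the survival protein BCL-XL. Gpihbp1 anchors lipoprotein lipase to capillaries and Fcmr is an IgM receptor. Ube2o was at 6.45, 7.00 and 6.93 across controls against 7.23, 7.00 and 6.94 across knockouts, lowest and highest in the same lungs as Alas2. None of the 10 passed the test (adjusted p 0.173 to 0.442).

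**Figure D3:**
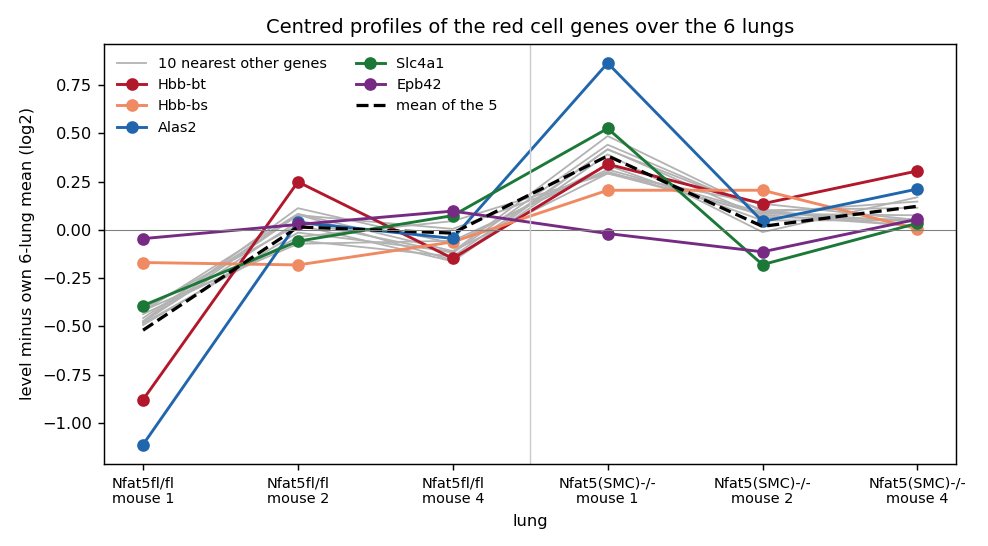
Level of each measured red cell gene in the 6 lungs minus its own mean over them (log2, vertical axis), with the mean of the 5 as a dashed line and the 10 nearest other genes in grey; lines join the values of 1 gene and the lungs have no order. The mean of the 5 lay 0.52 below its average in control mouse 1 and 0.38 above it in Nfat5(SMC)-/- mouse 1, and within 0.12 of it in the other 4 lungs.

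The embryonic and lesser globin genes were dim. Hba-x, Hbb-y and Hbb-bh1 encode embryonic chains. Together with Hbb-bh2, Hbq1a and Hbq1b they gave probe sets for 6 of 9 further globin genes listed, whose values lay between 3.92 and 4.95 in all lungs, below the array median. Of the 6, 3 were higher and 3 lower in Nfat5(SMC)-/- lungs, the median was -0.01, and limma called 0, also before adjustment (the methods' t-test likewise 0). The largest differences were 0.10 for Hbq1a and -0.11 for Hbb-bh1. Of all probe sets limma called 0.818% and held 19.3% before adjustment, where the methods' t-test held 15.5%. Of the 208 probe sets limma called, 204 lay above the median level.

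None of the other red cell genes passed the test. 5 lists held 73 measured genes, the 6 globins included. Of these 49 were higher and 24 lower, with a median difference of 0.05, beside a median of -0.00081 over all probe sets, of which 12648 lay higher and 12780 lower. Limma called 0 of the 73. Before adjustment 10 genes were higher and 3 lower at p under 0.05, where 8.19% of all probe sets were higher and 11.1% lower. The methods' t-test called 0, with 7 before adjustment, where 15.5% of all probe sets passed. Groups did not overlap for 16 of the 73, 12 higher and 4 lower, where 26.9% of all probe sets did not overlap. Control mouse 1 was the lowest lung for 27 of the 73 (37.0%), against 17.8% of all probe sets. Nfat5(SMC)-/- mouse 1 was the highest for 25 (34.2%), against 28.9% of all probe sets, and the lowest for 19 (26.0%), against 33.8%. Genes of 1 lung share its array and are not independent.

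The membrane and skeleton list held 17 genes, 12 higher and 5 lower, with a median of 0.04. Limma held 1 gene, Rhd, at an unadjusted p under 0.05 (the methods' t-test also 1). Over all probe sets 19.3% passed limma and 15.5% the methods' t-test before adjustment, and 26.9% did not overlap. Rhd, of the Rhesus protein family, was at 0.18 (adjusted p = 0.227) and Kel, a blood group metalloprotease, at 0.09 (0.488), both dim and without overlap. Aqp1, the water channel of red cells and also of lung capillaries, was at 10.84, 10.98 and 10.96 across controls against 11.01, 11.07 and 11.04 across knockouts, a difference of 0.11 (adjusted p = 0.414). Gypc, a glycophorin, was at -0.40 (adjusted p = 0.436) and Epb41, the skeletal protein 4.1, at -0.11 (0.714).

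Genes of haem synthesis and iron uptake went both ways. All 16 lay above the array median on average, 11 higher and 5 lower, with a median of 0.11. Limma held 3 of them at an unadjusted p under 0.05 and the methods' t-test 0, where 19.3% and 15.5% of all probe sets passed. Over all probe sets 26.9% did not overlap between genotypes. Alad, which acts after aminolevulinate synthase in the pathway, was at 0.38 (adjusted p = 0.195), without overlap. Ppox, the mitochondrial enzyme before the last step, was lower in all 3 Nfat5(SMC)-/- lungs, at -0.52 (adjusted p = 0.169), as was the haem exporter Flvcr1, at -0.53 (0.355), which was at 5.36 in knockout mouse 1 and at 6.31 and 6.38 in the other knockouts. Hebp1, a haem-binding protein, was at 0.53 (adjusted p = 0.230). Alas1, the form of aminolevulinate synthase used outside red cells, was at 10.33, 10.61 and 10.71 across controls against 10.62, 10.92 and 10.96 across knockouts, a difference of 0.28 (adjusted p = 0.326) with overlap. The iron importer of red cell mitochondria, Slc25a37, was at -0.33 (adjusted p = 0.384) and the transferrin receptor Tfrc at -0.11 (0.845), both with overlap.

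Of 12 transcription factors and receptor genes of nucleated red cell precursors, 8 lay above the array median and 4 below it. Klf1, the factor of adult beta globin, chosen after its values were seen, lay between 4.16 and 4.36 and differed by 0.05 (adjusted p = 0.741). Gata1 lay between 4.18 and 4.51 and was at 0.15 (adjusted p = 0.397). Zfpm1, the GATA1 partner FOG1, was at 0.47 (adjusted p = 0.123). Of the erythropoietin receptor route, Stat5a was at 0.57 (adjusted p = 0.0572), higher in all 3 Nfat5(SMC)-/- lungs, while the kinase Jak2 was at -0.63 (0.0599) and the receptor Epor at -0.26 (0.238), both lower in all 3. Stat5a and Jak2 are used by many cells other than red cells. The differences of the 12 were 9 above and 3 below 0 (median 0.05), and limma called 0. Before adjustment 4 had p under 0.05, 2 in each direction (3 in the methods' t-test). Of all probe sets, 8.19% were higher and 11.1% lower at that limma p, and 15.5% passed the methods' t-test before adjustment.

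Genes of the reticulocyte and red cell cytosol were 14 higher and 8 lower of 22, with a median of 0.06 and 5 at an unadjusted p under 0.05 (the methods' t-test 3). Those with the smallest p were Mgst3, a microsomal glutathione transferase (0.52, adjusted p = 0.0548), the glutathione peroxidase Gpx1 (0.33, 0.117), Tent5c, a poly(A) polymerase (0.41, 0.169), and Ube2l6, a conjugating enzyme abundant in reticulocytes (0.51, 0.198), each without overlap. Of all probe sets, 19.3% passed limma before adjustment (8.19% higher in knockouts) and 15.5% the methods' t-test, while 11.8% lay higher without overlap. Xpo7, a nuclear exporter, was at -0.19 and Bnip3l, which removes mitochondria from reticulocytes, at -0.21, with overlap. The mean of the list was lowest in control mouse 1, at 6.97, and between 7.18 and 7.26 in the other 5 lungs.

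**Figure D4:**
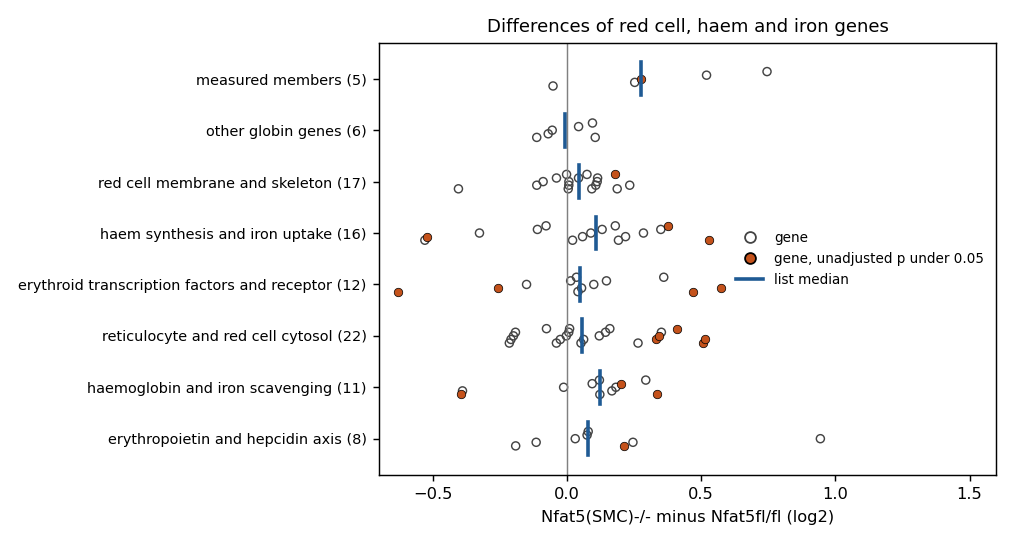
Difference between genotypes (Nfat5(SMC)-/- minus Nfat5fl/fl, log2, horizontal axis) for every measured gene of the red cell, haem and iron lists, with the number of genes in brackets, filled circles for an unadjusted p under 0.05 and a blue bar for the list median. The medians lay between -0.01 and 0.28 and no gene passed after adjustment over all probe sets.

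Genes that take up haemoglobin, haem or iron, and the erythropoietin and hepcidin axis, also held no called gene. Limma called 0.818% of all probe sets, and 12648 of these lay higher and 12780 lower. Of 11 scavenging genes 8 were higher, with a median of 0.12. Before adjustment limma held 3 of the 11 at p under 0.05 and the methods' t-test 3, where 19.3% and 15.5% of all probe sets passed. Without overlap 3 lay higher and 1 lower, against 11.8% and 15.0% of all probe sets. Cd163, the macrophage receptor for haptoglobin-bound haemoglobin, was at 0.34 (adjusted p = 0.197) and the haem transporter Slc48a1 at 0.20 (0.228), both higher in all 3 Nfat5(SMC)-/- lungs. The iron exporter Slc40a1, ferroportin, was at 5.50, 5.56 and 5.43 across controls against 5.02, 5.05 and 5.22 across knockouts, a difference of -0.40 (adjusted p = 0.0779). Of 8 genes of the hormone axis 6 were higher, with a median of 0.08. Limma and the methods' t-test each held 1 of the 8, Tfr2, before adjustment, and it alone lay without overlap. Hamp, which encodes hepcidin, was at 4.80, 5.58 and 4.87 across controls against 4.13, 6.87 and 7.09 across knockouts, the lowest and the 2 highest lungs being of the same genotype (difference 0.94, adjusted p = 0.572). Tfr2, a second transferrin receptor, was at 0.21 (0.186), and Erfe, the erythroblast hormone that lowers hepcidin, at -0.19 (0.324).

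Markers of other blood cells and tissues were read in the same lungs. Summarised as the mean of each list, 12 platelet markers lay at 5.30 to 5.34 in controls and 5.31 to 5.51 in Nfat5(SMC)-/- lungs, 10 neutrophil markers at 4.77 to 4.82 and 4.75 to 4.93, 10 circulating monocyte markers at 7.31 to 7.34 and 7.00 to 7.41, and 11 B and T cell markers at 6.09 to 6.47 and 6.18 to 6.70. In these 4 lists limma called 0 genes, with 0, 2, 0 and 2 before adjustment at p under 0.05, and the methods' t-test held 0 at either step. Of all probe sets limma called 0.818% and held 19.3% before adjustment, where the methods' t-test held 15.5%. Of the B and T cell markers 9 of 11 were higher in knockouts (median 0.18), led by the B cell genes Ms4a1, at 1.00 (adjusted p = 0.248), Cd79b, at 0.66 (0.248), and Cd79a, at 0.58 (0.291). Fat cell markers stood apart, at 6.10 to 6.73 in controls and 7.98 to 8.84 in Nfat5(SMC)-/- lungs. All 12 were higher, 5 of them called by limma and 0 by the methods' t-test, which called 0 of all probe sets. Of 8 brown fat cell markers 6 were higher and 0 called, with 5 before adjustment. The part of these cells in the red cell differences was not tested. The lung was present as labelled: 10 alveolar markers lay at a mean of 11.3 to 11.6, 10 endothelial markers at 10.3 to 10.6 and 8 smooth muscle markers at 8.11 to 8.56. Of the 10 endothelial markers 6 had lower levels in knockouts (median -0.19) and limma called 0, with 5 lower without overlap and at p under 0.05 before adjustment (the methods' t-test 3). Among these were the receptors Tek, at -0.43 (adjusted p = 0.0548), and Calcrl, at -0.56 (0.0958). Of all probe sets, 15.0% lay lower without overlap and 11.1% were lower at limma's unadjusted p under 0.05. The targeted gene Nfat5 was at 9.18, 8.62 and 9.21 across controls against 8.23, 7.72 and 7.89 across knockouts (-1.06, adjusted p = 0.0707), every knockout below every control, and the sources used here do not say whether its probes lie in the deleted part. The array of Nfat5(SMC)-/- mouse 1, the highest lung for Hbb-bt, Alas2 and Slc4a1, had a mean correlation of 0.970 with its own group, where the other arrays had 0.980 to 0.991.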

How the data were processed

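The members and gene lists were chosen with earlier results of these data known. The arrays were GeneChip Mouse Gene 2.0 ST. The deposited log2 values are the authors' own: the submitters' processing notes name RMA, without a version, and the study's methods name quantile normalisation and a custom CDF (version 22) that gives each Entrez gene 1 probe set. The arrays thus have nearly 1 distribution, with a median of 4.9625 in control mouse 1 and 4.9619 in the others, and a shift of all genes cannot be seen. The number of arrays limits the precision. The sources used here name no genome build for the CDF, so the coordinates printed are those of the RefSeq promoter table alone. Symbols came from the platform table (24705 of 25428 probe sets) and a RefSeq table of GRCm38.p6 (25269 in all).

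Genotypes were compared with limma 3.58.1 in R 4.3.3 (lmFit, eBayes, two-sided, 6 lungs, no covariate or filter), and p-values were adjusted across the whole table by Benjamini and Hochberg, with 0.05 as the threshold. The script was tested on simulated data. The study's methods name a one-way ANOVA, which for 2 groups is the t-test with a common variance; it was run as an alternative and is called the methods' t-test. Whether lungs came from separate litters is not stated. Lists were described by counts and medians. The text names all measured members, Nfat5, up to 4 genes per direction with the smallest p in the red cell, haem and iron lists and up to 2 in the others, the 2 brightest of the others, and the 10 nearest profiles; only some are printed. 16 alternatives were run. Results of some genes are not reported here.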

Additional observations from a re-analysis of the deposited data

How the results depend on the processing

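None of the measured members was called in the 6 lungs or under any of the 16 alternatives, of which 15 were limma fits and 1 the methods' t-test, and of which the filter on level tested 3 members. The count over all probe sets, 208, moved with the processing: it was 0 with the methods' t-test, 2 with a mean-dependent prior, 147 with a robust prior, 3263 with array weights, 1 after cyclic loess, 33 among probe sets above the median level and 46 after the correction for gene span, and 0 to 980 with 1 lung left out (980 without Nfat5(SMC)-/- mouse 1, 0 without any other). It was 1452 without Nfat5(SMC)-/- mouse 1 and Nfat5fl/fl mouse 2 together. Hbb-bs, Hbb-bt and Alas2 stayed higher and Epb42 lower under every alternative that tested them, in ranges of 0.22 to 0.34, 0.21 to 0.77, 0.38 to 0.95 and -0.11 to -0.0084, with adjusted p from 0.0926, 0.175, 0.207 and 0.381 upwards. Slc4a1 ranged from -0.027 with array weights, the single reversal, to 0.41. That filter removed Hbb-bs and Epb42. The mean level of the 5 differed by 0.18 to 0.44 with 1 lung left out. With the mouse number as a replicate block 0 probe sets were called. Deviations from the group mean correlated between same-numbered mice at 0.133, 0.411 and 0.0775 for mice 1, 2 and 4. Between differently numbered mice they correlated at -0.329 to 0.145. These values do not settle whether the numbers pair the lungs, and the main fit took no pairing.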

Other observations

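Probe sets of 3 microRNA genes that red cell precursors are known to express, chosen after their values were seen, gave no signal that followed Alas2. The sources used here do not say how far the purified RNA and these probe sets capture mature microRNAs. No conclusion on red cell content was therefore drawn from their levels. Mir144 lay between 3.80 and 3.91 in all 6 lungs and Mir451a at no more than 4.47, both under the array median of 4.96. Mir486 was at 4.79, 5.01 and 5.15 across controls against 4.94, 5.34 and 5.08 across knockouts, in the order of mouse numbers (difference 0.14, adjusted p = 0.645 in limma). As with Hbb-bt and Alas2, control mouse 1 had the lowest Mir486 level, but the highest was in Nfat5(SMC)-/- mouse 2.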
